A study of Mus musculus with 66 samples.

Results

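The genes described here are the zinc transporters of the Slc30a and Slc39a families, the metallothionein gene Mt1 and the transcription factor gene Mtf1. They were chosen by gene symbol (Slc30a or Slc39a followed by a number, or Mt1, Mt2 or Mtf1), and 19 of the 11513 genes in the deposited tables matched: 7 Slc30a genes (Slc30a1, 3, 4, 5, 6, 7 and 9), 10 Slc39a genes (Slc39a1, 3, 5, 6, 7, 9, 10, 11, 13 and 14), Mt1 and Mtf1. Mt2 and the other genes of both families were not analysed here. The samples were 3T9-MycER fibroblasts, immortal cells from mouse embryos whose c-myc alleles are floxed and which had received MycER from a pBabe retroviral vector; whether they are 1 clone is not given in the sources used here. In MycER, Myc is joined to part of the estrogen receptor, and 4-hydroxytamoxifen (OHT) switches it on. OHT was given at 400 nM for 10, 20 or 30 min or for 1, 1.5, 2, 4, 8, 12 or 16 h, and cells at 0 min had none. At each of these 11 times there were 3 libraries of labelled RNA, obtained by pulling down RNA that had incorporated 4-thiouridine (300 µM) during 10 min, and 3 of total RNA, 66 libraries in all. Every library carries the floxed alleles and MycER, no series of times without OHT was analysed here, and the 0 min libraries are the control for every later time, so that all changes against 0 min share those 3 libraries. The labels do not call the replicates separate cultures, and the p-values therefore cover only library-to-library spread, possibly technical.

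Zinc is held in the cytosol at a low free level by 2 families of membrane proteins that move it in opposite directions. SLC30 proteins (also called ZnT) carry zinc out of the cytosol, across the cell surface or into organelles, and SLC39 proteins (ZIP) carry it into the cytosol from outside or from organelles. Metallothioneins such as Mt1 are small cysteine-rich proteins that bind surplus zinc, and MTF1 is the zinc-sensing transcription factor that binds metal response elements and drives metallothionein genes and the exporter gene Slc30a1.

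The promoters of 4 members are shown because their exon values later changed in different ways: Slc30a1 rose early, while Mt1, Slc39a1 and Slc39a13 fell late. Each window runs from 250 bases before to 50 bases after a RefSeq gene start (table of build GRCm38.p6), and its place in mm9, the build named in the submitters' processing notes, was found by an exact match that occurred 1 time on its chromosome. Capitals mark matches to the core of the metal response element, searched as TGCACNC and TGCGCNC on both strands, or to CACGTG, the E-box that Myc with its partner Max is known to bind (a core and an E-box can share bases).
Slc30a1, chr1:193730410-193730709, plus strand: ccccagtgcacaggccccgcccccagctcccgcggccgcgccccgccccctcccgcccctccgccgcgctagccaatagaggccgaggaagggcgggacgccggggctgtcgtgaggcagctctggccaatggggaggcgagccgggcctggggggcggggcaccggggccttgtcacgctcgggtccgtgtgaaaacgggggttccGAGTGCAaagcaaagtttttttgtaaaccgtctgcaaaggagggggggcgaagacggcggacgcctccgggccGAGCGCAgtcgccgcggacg
Mt1, chr8:96702739-96703038, plus strand: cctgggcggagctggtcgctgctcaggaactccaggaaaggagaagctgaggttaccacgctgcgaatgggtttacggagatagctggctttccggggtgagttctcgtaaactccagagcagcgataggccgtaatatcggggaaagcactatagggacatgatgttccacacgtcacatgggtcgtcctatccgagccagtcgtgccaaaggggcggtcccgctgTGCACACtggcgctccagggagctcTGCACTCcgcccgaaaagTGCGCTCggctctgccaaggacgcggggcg
Slc39a13, chr2:90910423-90910722, minus strand: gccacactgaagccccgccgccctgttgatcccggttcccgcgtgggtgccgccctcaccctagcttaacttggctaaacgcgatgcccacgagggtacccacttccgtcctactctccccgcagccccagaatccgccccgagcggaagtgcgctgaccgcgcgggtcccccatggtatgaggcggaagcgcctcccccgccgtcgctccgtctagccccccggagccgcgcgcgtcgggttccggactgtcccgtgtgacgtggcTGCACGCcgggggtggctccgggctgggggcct
Slc39a1, chr3:90051864-90052163, plus strand: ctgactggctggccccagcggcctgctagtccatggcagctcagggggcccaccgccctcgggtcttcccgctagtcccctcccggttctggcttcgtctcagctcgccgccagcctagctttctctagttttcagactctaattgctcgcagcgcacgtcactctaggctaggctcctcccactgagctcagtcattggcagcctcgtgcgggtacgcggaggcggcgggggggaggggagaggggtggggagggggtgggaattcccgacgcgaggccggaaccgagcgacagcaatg

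The Slc30a1 window held 2 matches to the metal response element core, both on the opposite strand, beginning at -43 and at 30 from the gene start. The Mt1 window held 3, beginning at -23, 2 and 20, and the Slc39a13 window held 1, at 17. No match was found in the Slc39a1 window, and CACGTG was found in none of the 4 windows. RefSeq windows were at hand for 17 of the 19 members (21 windows, since some genes have more than 1 start), with none for Slc39a6 and Slc39a14. The metal response element core was found in 10 of the 21 windows (47.6%), against 25.7% of the 32851 windows of all genes, and CACGTG in 2 of 21 (9.52%, in Slc30a5 and Slc39a11) against 7.15% of all. The windows of all genes were neither limited to the genes analysed here nor matched for base composition, and these shares were not tested against each other. A match is a description of the letters, and binding was not measured here.

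The 4 tables used give exon and intron values for labelled and for total RNA. The authors' deposited values are rescaled whole numbers, and a scaled value below is such a value after a further scaling of each library to the typical gene of its table. Their sums per library were 11619390 to 14118146 in labelled exons, 31279341 to 39258946 in labelled introns, 46498084 to 52716124 in total exons and 10649913 to 13008655 in total introns, and the true read depth is unknown. All 19 members passed the filter of at least 10 in at least 3 libraries in each table. The fibroblast label was checked against 12 fibroblast markers, of which Thy1, Dcn and Lum were not analysed here. The summed RPKM of the other 9 in total exons was 4803 to 5199 at 0 min and 2895 to 3017 at 16 h. Most of this sum came from S100a4 and Vim, with medians over all libraries of 2121 and 2042 RPKM. The medians of Pdgfrb and Pdgfra were 11.1 and 4.86 RPKM. Of 14 markers of other cell types, 10 were not analysed here, and the summed RPKM of the other 4 was 8.57 to 10.2 at 0 min and 25.1 to 28.3 at 16 h. In total exons the neuronal tubulin gene Tubb3 lay between 6.28 and 30.1 RPKM over all libraries and Cd68, a macrophage marker, between 2.1 and 3.25 RPKM. Ptprc and Pecam1, markers of blood and endothelial cells, stayed at or below 0.125 and 0.146 RPKM. Since each library is set to its typical gene, a change shared by all RNA would not show.

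Before OHT, the members differed widely in level per length of transcript. In total exons at 0 min, Slc39a7, which releases zinc from the endoplasmic reticulum and Golgi, stood at 67.6 ± 3.42 RPKM (SD, n = 3; RPKM here are the authors' values after the same further scaling). Slc30a4, an exporter into endosomes and vesicles, stood at 65 ± 0.937 RPKM and Slc39a1, an importer at the cell surface, at 64 ± 2.97 RPKM, and each of these 3 overlapped its neighbour in the order. Slc30a5 (36.4 ± 0.624 RPKM), which loads zinc into the early secretory pathway, lay apart from Slc39a6 (32.5 ± 1.26) and Slc39a13 (32.2 ± 2.27), which overlapped each other. Slc30a9, Slc39a10, Slc39a14, Slc30a6, Mt1, Slc30a7, Slc39a11, Slc39a9 and Slc39a3 followed between 20.6 and 3.97 RPKM, with overlaps between Slc30a6, Mt1 and Slc30a7 and between Mt1 and Slc39a11. Slc30a1, the exporter at the cell surface, was low at 2.64 ± 0.39 RPKM and overlapped Mtf1 at 2.6 ± 0.0793 RPKM. Slc30a3 and Slc39a5 were near the lower limit, at 0.318 ± 0.141 and 0.316 ± 0.0651 RPKM.

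Slc30a1 was the first member called higher and had the largest rise of the 19 in both exon tables. The gene (Entrez 22782) lies on chromosome 1 from 193730646 to 193737126 of mm9 on the plus strand. Its scaled values in labelled exons were 225, 245 and 177 in replicates 1 to 3 at 0 min, 252, 370 and 317 at 10 min, and 827, 704 and 664 at 20 min. Every library at 20 min lay above every library at 0 min, and the 10 min libraries did as well, though by less. The log2 change was 0.53 ± 0.13 (standard error) at 10 min with an adjusted p of 0.441, and 1.76 ± 0.13 at 20 min with an adjusted p of 6.6e-12 (limma, Benjamini-Hochberg over 11488 genes). A call below is an adjusted p under 0.05.

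The labelled exon value of Slc30a1 was highest at 1 h and then fell without returning to its start. It reached 1100, 1163 and 1088 at 1 h, a mean of 1117 ± 40.1 (SD, n = 3) against 216 ± 34.9 at 0 min. At 4 h the libraries held 761, 649 and 735 and at 16 h 550, 464 and 537, still above all 3 libraries at 0 min. The log2 change against 0 min was 1.73 ± 0.13 at 4 h (adjusted p = 8.5e-13) and 1.27 ± 0.13 at 16 h (adjusted p = 5.9e-10). The decline was itself past the threshold, with a log2 difference of -0.65 ± 0.13 between 4 h and 1 h (adjusted p = 0.00126) and of -0.47 ± 0.13 between 16 h and 4 h (adjusted p = 0.00845). Among the genes called higher at a time, ordered by the size of their rise, Slc30a1 was number 6 of 381 at 20 min, number 4 of 1554 at 1 h, number 48 of 2245 at 4 h and number 150 of 2590 at 16 h.

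Total exons, which hold RNA made before and after OHT was added, followed later. The Slc30a1 values were 930, 917 and 707 at 0 min, 1217, 1369 and 874 at 20 min, and 1749, 1547 and 1275 at 30 min. The 20 min libraries overlapped the control range and those at 30 min lay above it, with a log2 change of 0.84 ± 0.14 at 30 min (adjusted p = 0.00193). The values were 2858, 2968 and 2849 at 1 h, 3357, 3253 and 3377 at 2 h, and 1679, 1976 and 2041 at 16 h. The highest mean was that at 2 h (3329 ± 66.9 against 852 ± 125 at 0 min, a log2 change of 1.98 ± 0.14, adjusted p = 1.0e-11). At 16 h the log2 change was 1.16 ± 0.14 (adjusted p = 4.2e-08).

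**Figure D1:**
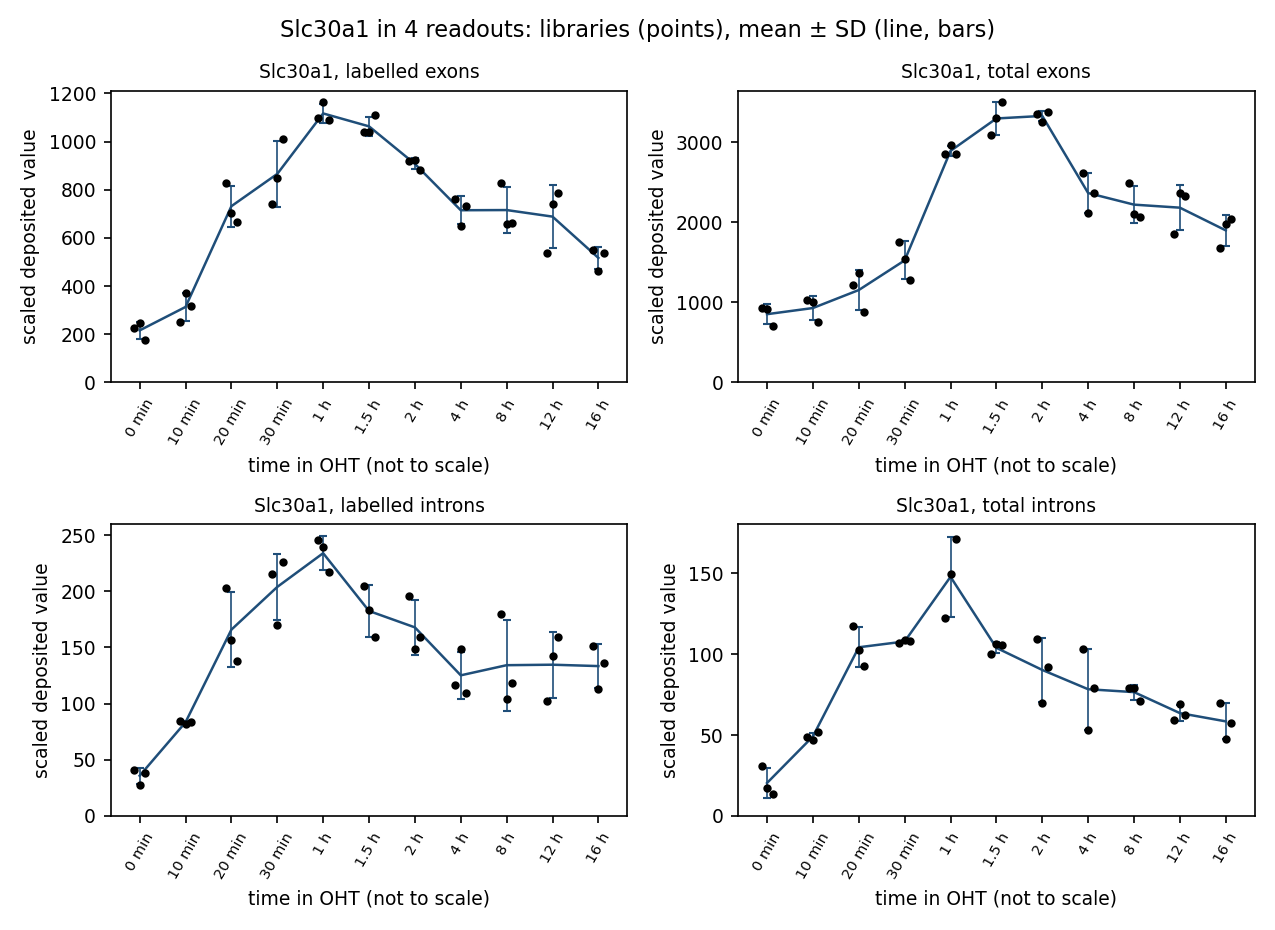
Scaled values of Slc30a1 (vertical axes, starting at 0) by time in OHT (horizontal axes, evenly spaced and not to scale) in labelled and total exons and introns; points are libraries, lines join means of 3 libraries and bars are ± SD. The labelled exon mean was highest at 1 h (1117) and the total exon mean at 2 h (3329), and both intron means were highest at 1 h (234 labelled, 148 total).

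Intron values, which come mostly from RNA that is not yet spliced, placed the first rise of Slc30a1 at 10 min. Labelled introns held 41.2, 27.7 and 38.2 at 0 min and 84.4, 81.7 and 83.9 at 10 min, with no overlap and a log2 change of 1.22 ± 0.19 (adjusted p = 5.9e-04). Total introns held 30.7, 17.1 and 13.2 at 0 min and 48.5, 47.1 and 51.7 at 10 min, again with no overlap (log2 change 1.31 ± 0.22, adjusted p = 0.00254). Slc30a1 was the 1 member of 19 called higher at 10 min in either intron table, where 0.53% of 11506 genes (61 genes) were called higher in labelled introns and 0.122% of 11474 (14 genes) in total introns. At 1 h the log2 change was 2.69 ± 0.19 in labelled introns (adjusted p = 4.8e-13) and 2.87 ± 0.22 in total introns (adjusted p = 2.0e-12). The intron values of Slc30a1 are low, so a change of few units weighs heavily in them.

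A neighbour bears on these values. The annotated span of 1700034H15Rik, on the opposite strand, overlaps that of Slc30a1 by 761 bases, and whether counting used strand is not given in the sources used here, so reads of both genes in the overlap cannot be told apart. 1700034H15Rik also rose: its labelled intron value went from 33.6 ± 11.1 at 0 min to 246 ± 30.4 at 1 h (log2 change 2.88 ± 0.2, adjusted p = 1.9e-13) and 195 ± 23.7 at 16 h. Its exon changes were smaller, with a log2 change of 0.58 ± 0.14 in labelled exons at 1 h (adjusted p = 0.00212, from 111 to 165) and of 1.04 ± 0.19 in total exons at 16 h (adjusted p = 3.7e-05). At 1 h the mean of Slc30a1 was above that of the neighbour in labelled exons (1117 against 165) and not in introns (234 against 246 in labelled and 148 against 177 in total introns). The part of the overlap in the Slc30a1 rise was not tested.

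The labelled change of Slc30a1 exceeded its total change at the early times. The difference of the log2 changes, tested as an interaction over the 66 libraries, was 1.34 ± 0.2 at 20 min (adjusted p = 3.7e-05) and 1.16 ± 0.2 at 30 min (adjusted p = 2.1e-04). No other member was called at these times, which were looked at after the values were seen, and 0.532% of 11463 genes were called with a larger labelled change at 20 min and 1.67% at 30 min. The difference was 0.61 ± 0.2 at 1 h (adjusted p = 0.142), 0.26 ± 0.2 at 4 h and 0.1 ± 0.2 at 16 h. By limma, 0 of the 19 members were called at 1 h, 4 h or 16 h, with 1 member (Slc30a1), 0 and 0 at an unadjusted p under 0.05. The interaction fit took labelled and total libraries as separate samples. Whether those of the same time and number share a culture is not known here, and no pairing was fitted.

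**Figure D2:**
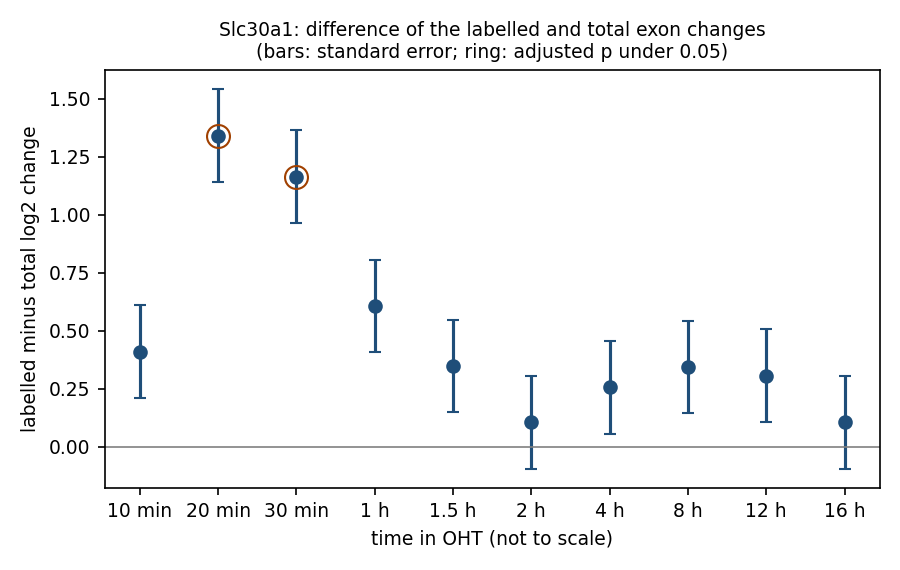
Log2 change in labelled exons minus log2 change in total exons for Slc30a1 (vertical axis) by time in OHT (horizontal axis, not to scale); bars are standard errors and rings mark an adjusted p under 0.05. The difference was 1.34 at 20 min and 1.16 at 30 min, and 0.1 at 2 h and at 16 h.

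The other Slc30a genes moved little. Slc30a7, which works with Slc30a5 and Slc30a6 in supplying zinc to the early secretory pathway, held 1258 to 1386 in labelled exons at 0 min and 1547 to 1646 at 12 h (log2 change 0.3 ± 0.06, adjusted p = 1.3e-04). In total exons it held 5188 to 5636 at 0 min and 5870 to 6699 at 12 h (0.24 ± 0.05, adjusted p = 1.4e-04). Both tables thus had it higher at 12 h without overlap, and it was called higher in total exons at 4 h, 8 h and 16 h as well, with log2 changes of 0.13 to 0.16. Its 4 h and 16 h calls in total exons were lost without further scaling and in a fit of the 2 groups alone. The 4 h call was also lost without replicate 3 of 0 min or of 4 h, and the 16 h call without replicate 2 or 3 of 0 min or replicate 1 or 2 of 16 h and on RPKM plus 0.1. Slc30a4 was called lower in labelled exons at 4 h (2216 to 2565, against 2715 to 3266 at 0 min, log2 change -0.25 ± 0.09, adjusted p = 0.0289) and in total exons at 8 h and 12 h (log2 changes of -0.16 and -0.23). Its 4 h call in labelled exons was lost without replicate 2 of 0 min or of 4 h and without a variance trend in the fit. Slc30a6 was called lower at 1 of 10 times in labelled exons (1.5 h, -0.32 ± 0.1, adjusted p = 0.0202) and at none in total exons. Slc30a5 and Slc30a9, a protein reported at mitochondria, were called at no time in either exon table. Slc30a3, best known from synaptic vesicles, was called lower in labelled exons at 12 h, on values of 5.04, 8.33 and 0 against 10.7, 22.2 and 18.4 at 0 min, too low to carry a fold change.

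Among the importers, the exon values of Slc39a1 and Slc39a13 were called lower from 4 h or 8 h onward. Labelled introns were first called lower at 1 h for both genes, and total introns at 1.5 h for Slc39a1 and 8 h for Slc39a13. Slc39a1 (Entrez 30791, chromosome 3 from 90052094 to 90057534, plus strand) held 971, 919 and 967 in labelled exons at 0 min, 985, 973 and 982 at 1 h, 763, 843 and 793 at 4 h, and 546, 567 and 588 at 16 h. The 1 h libraries lay slightly above those at 0 min (log2 change 0.04 ± 0.09, adjusted p = 0.782), and all libraries at 4 h and 16 h lay below. The log2 change was -0.25 ± 0.09 at 4 h (adjusted p = 0.0207) and -0.75 ± 0.09 at 16 h (adjusted p = 8.7e-09). The 4 h call was lost (adjusted p between 0.0523 and 0.0839) without replicate 1 or 3 of 0 min or of 4 h. Its total exon values were 9589, 9442 and 8775 at 0 min and 4952, 5052 and 4756 at 16 h, without overlap, and the log2 change was -0.33 ± 0.06 at 4 h (adjusted p = 4.0e-05) and -0.91 ± 0.06 at 16 h (adjusted p = 9.8e-14).

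Slc39a13, a zinc transporter of intracellular membranes that is needed in connective tissue, lies on chromosome 2 from 90901948 to 90910574 on the minus strand (Entrez 68427). Its labelled exon values were 1128, 1082 and 1097 at 0 min, 978, 1020 and 981 at 4 h and 638, 718 and 654 at 16 h. Groups did not overlap at either time, but the change at 4 h missed the threshold (-0.15 ± 0.09, adjusted p = 0.21) while that at 16 h passed it (-0.72 ± 0.09, adjusted p = 7.1e-08). In total exons the values were 4528, 4966 and 4324 at 0 min, 3954, 3817 and 3537 at 4 h and 2823, 2744 and 2346 at 16 h. The log2 change in total exons was -0.29 ± 0.09 at 4 h (adjusted p = 0.0103) and -0.81 ± 0.09 at 16 h (adjusted p = 7.7e-09). The 4 h call was lost without replicate 2 of 0 min (adjusted p = 0.0683) or replicate 3 of 4 h (adjusted p = 0.0575). Its span overlaps that of Psmc3, a proteasome subunit gene on the opposite strand, by 4579 bases, and Psmc3 itself changed by 0.02 ± 0.07 in labelled exons (adjusted p = 0.826) and by -0.15 ± 0.04 in total exons (adjusted p = 0.00489) at 16 h on the log2 scale.

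Slc39a10 (Entrez 227059, chromosome 1 from 46864389 to 46910891, minus strand), an importer at the cell surface, went the other way. In labelled exons it held 864, 1046 and 970 at 0 min, 876, 783 and 979 at 1 h, 1060, 1105 and 1151 at 4 h, and 1204, 1296 and 1355 at 16 h. The 1 h libraries overlapped the control range, and those at 4 h and 16 h lay above it. The change was called at 16 h (log2 0.42 ± 0.12, adjusted p = 0.00317) and not at 4 h (0.21 ± 0.12, adjusted p = 0.166). In total exons the values were 5691, 5383 and 5808 at 0 min, 5799, 6431 and 7135 at 4 h, and 7456, 8613 and 8322 at 16 h. Groups overlapped at 4 h (0.19 ± 0.1, adjusted p = 0.13) and not at 16 h (0.53 ± 0.1, adjusted p = 5.1e-05). With the replicate number as a block, the 4 h change in total exons passed the threshold (adjusted p = 0.0212).

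Slc39a14 and Slc39a6 were higher early and lower late in labelled exons. Slc39a14, which imports zinc, iron and manganese, held 2551, 2451 and 2309 at 0 min, 3067, 3143 and 3048 at 1 h, and 1995, 1748 and 1745 at 16 h. The 3 groups did not overlap, and the log2 change was 0.34 ± 0.07 at 1 h (adjusted p = 1.8e-04) and -0.41 ± 0.07 at 16 h (adjusted p = 3.0e-06). Slc39a6, a cell surface importer closely related to Slc39a10, held 1857, 1622 and 1794 at 0 min, 2090, 2173 and 2127 at 1 h, and 1510, 1515 and 1622 at 16 h. Its log2 change was 0.28 ± 0.07 at 1 h (adjusted p = 0.00344) and -0.18 ± 0.07 at 16 h (adjusted p = 0.0369). The 16 h call of Slc39a6 was lost without replicate 1 or 3 of 0 min, without replicate 1 or 2 of 16 h, without further scaling and in a fit of the 2 groups alone. In total exons, Slc39a14 was called higher at 1.5 h only (0.37 ± 0.11, adjusted p = 0.023), Slc39a6 at 2 h and 4 h (0.2 ± 0.07 and 0.24 ± 0.07), and neither was called lower at any of the 10 times. With the replicate number as a block, Slc39a14 was called higher in total exons at 4 h as well and lower at 16 h.

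The remaining importers divided between small rises, late falls and no call. Slc39a7 was called higher at 6 of 10 times in labelled exons and 5 of 10 in total exons, with 2280 to 2447 at 0 min and 2695 to 2967 at 4 h in labelled exons (log2 change 0.26 ± 0.06, adjusted p = 0.00108). Its total exon call at 4 h was lost without replicate 3 of 0 min or replicate 1 of 4 h, without further scaling and in a fit of the 2 groups alone. A transcript on the same strand, Gm20427, overlaps its span by 3306 bases, so reads may be shared. Slc39a11, an importer found mainly at intracellular membranes, was called lower at 12 h and 16 h in both exon tables, with 246 to 297 at 0 min and 183 to 203 at 16 h in labelled exons (-0.48 ± 0.11, adjusted p = 6.2e-04). Sstr2 and Cog1, on the opposite strand, overlap its span by 6664 and 911 bases. Slc39a3, an importer at the cell surface, was called lower in labelled exons at 1.5 h (112 to 129, against 154 to 173, -0.46 ± 0.15, adjusted p = 0.0198) and at no time in total exons. Slc39a9 and Slc39a5 were called at no time in either exon table, and Slc39a5, which was barely detected, lies within the span of Ankrd52 on the opposite strand.

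**Figure D3:**
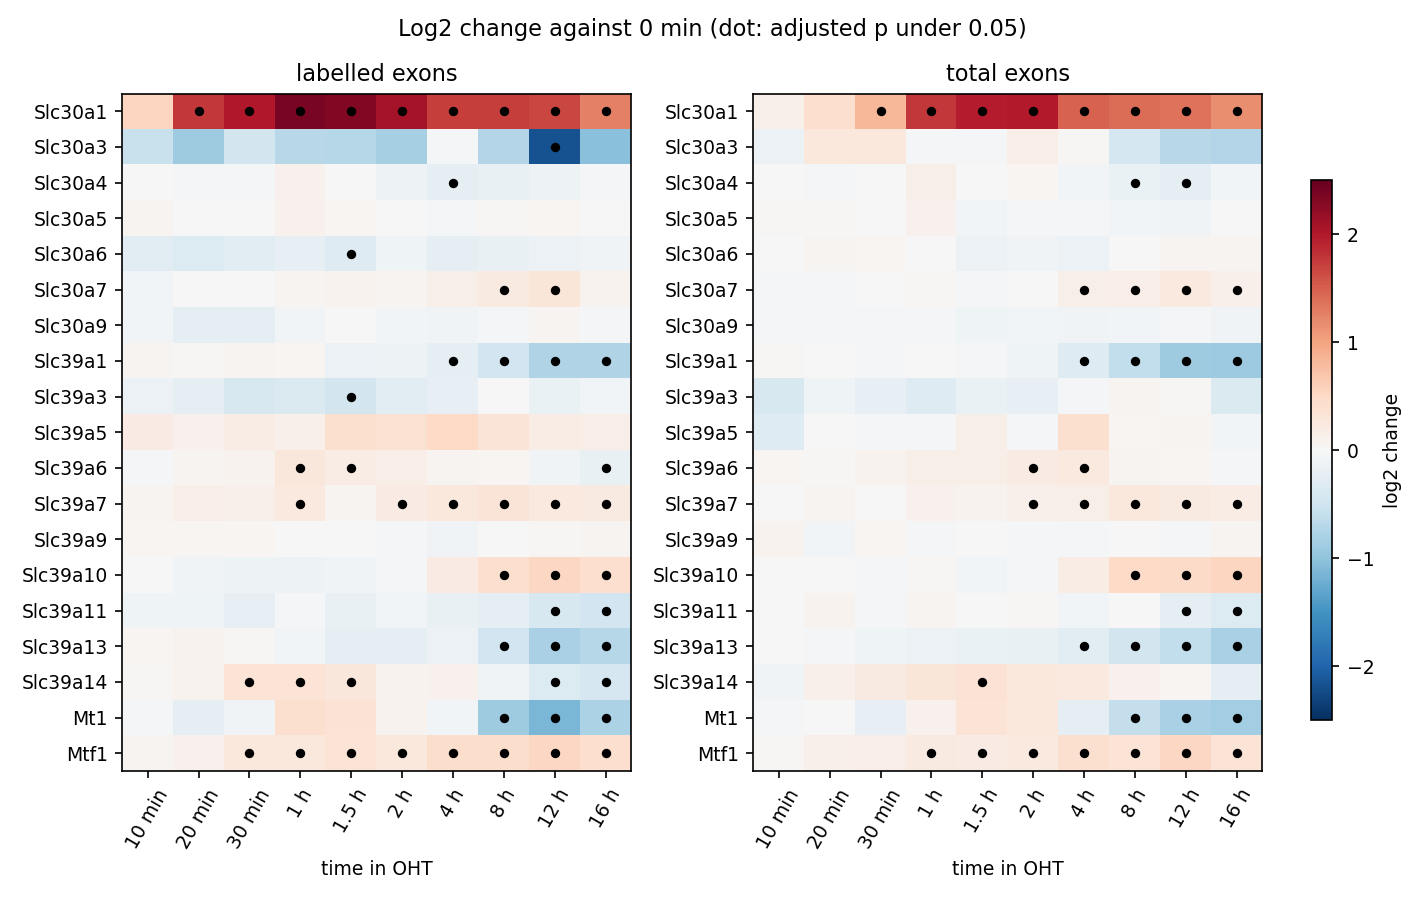
Log2 change against 0 min (colour scale) of the 19 genes (rows) at 10 times in OHT (columns) in labelled exons (left) and total exons (right); dots mark an adjusted p under 0.05. Slc30a1 has dots from 20 min in labelled and from 30 min in total exons, Mtf1 from 30 min and 1 h, and the falls of Slc39a1, Slc39a13, Slc39a11 and Mt1 start at 4 h or later.

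Mtf1 and Mt1, the zinc sensor and a gene it is known to drive, moved in opposite directions at the late times. Mtf1 (Entrez 17764, chromosome 4 from 124479348 to 124527044, plus strand) held 630, 623 and 626 in labelled exons at 0 min, 781, 755 and 724 at 1 h, 884, 910 and 766 at 4 h, and 893, 824 and 787 at 16 h. Every library from 1 h, 4 h and 16 h lay above the control range. The log2 change was 0.27 ± 0.08 at 1 h (adjusted p = 0.0118), 0.44 ± 0.08 at 4 h (adjusted p = 2.6e-05) and 0.41 ± 0.08 at 16 h (adjusted p = 4.6e-05). Without replicate 1 of 1 h the 1 h call was lost (adjusted p = 0.0587). In total exons Mtf1 held 1249, 1269 and 1327 at 0 min and 1696, 1547 and 1660 at 16 h, and its log2 change was 0.22 ± 0.07 at 1 h (adjusted p = 0.0429), 0.39 ± 0.07 at 4 h (adjusted p = 4.6e-05) and 0.35 ± 0.07 at 16 h (adjusted p = 9.6e-05). The span of 1110065P20Rik, on the opposite strand, overlaps that of Mtf1 by 316 bases.

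Mt1 (Entrez 17748, chromosome 8 from 96702989 to 96704225, plus strand) varied widely between labelled libraries. Its labelled exon values were 78.5, 51.5 and 109 at 0 min, 96.2, 136 and 78.2 at 1 h, 70.3, 64.6 and 82.7 at 4 h, and 46.5, 41.9 and 42.8 at 16 h. The first 3 groups overlapped, and the 16 h libraries lay below the lowest at 0 min. The log2 change was 0.4 ± 0.25 at 1 h (adjusted p = 0.273), -0.07 ± 0.25 at 4 h (adjusted p = 0.849) and -0.79 ± 0.25 at 16 h (adjusted p = 0.0111), and at 12 h it was -1.14 ± 0.25 (adjusted p = 3.1e-04). Without replicate 3 of 0 min, the highest of the controls, the 16 h change was -0.53 and not called (adjusted p = 0.126). Total exons were steadier, with 489, 460 and 420 at 0 min, 411, 380 and 378 at 4 h, and 210, 253 and 287 at 16 h. At 1.5 h (644, 559 and 540) and at 2 h (576, 559 and 516) every library lay above the 0 min range, without a call. The first call lower was at 8 h. The log2 change in total exons was -0.23 ± 0.15 at 4 h (adjusted p = 0.25) and -0.87 ± 0.15 at 16 h (adjusted p = 1.3e-05), so that the total RNA of Mt1 fell from 456 ± 34.8 at 0 min to 250 ± 38.5 at 16 h (SD, n = 3).

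**Figure D4:**
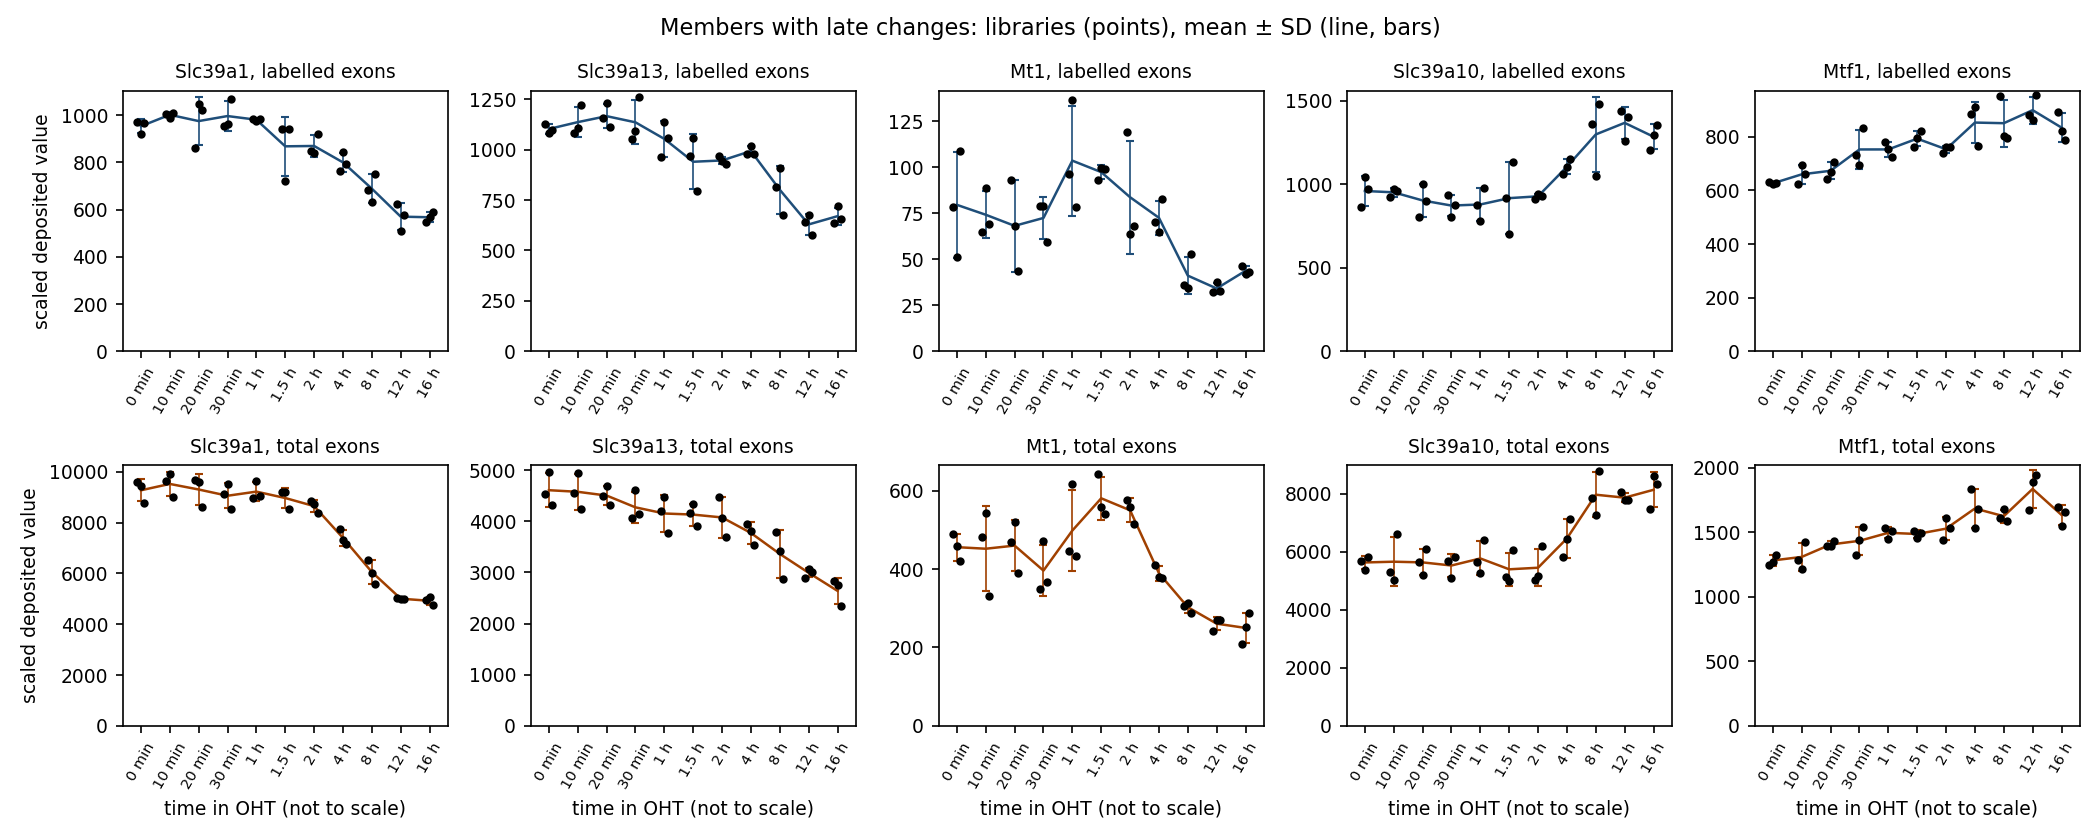
Scaled exon values (vertical axes, starting at 0) of Slc39a1, Slc39a13, Mt1, Slc39a10 and Mtf1 in labelled RNA (upper row) and total RNA (lower row) by time in OHT (horizontal axes, not to scale); points are libraries, lines join means of 3 libraries and bars are ± SD. Slc39a1, Slc39a13 and Mt1 were lower and Slc39a10 and Mtf1 higher at 16 h than at 0 min without overlap in both rows.

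Exon values of fibroblast markers also fell at the late times. Of the 9 measured fibroblast markers, 7 were called lower and 0 higher at 16 h in total exons, with a median log2 change of -0.76 against -0.01 over all genes, and 7 and 0 in labelled exons (median -0.84 against 0.01), where 29% of all genes were lower in total and 21.7% in labelled exons. At 4 h, 2 of 9 were lower in total exons, about the share of all genes (19.5%), and 5 of 9 in labelled exons (18.7% of all genes). Of the 4 measured markers of other cell types, 3 were called higher and 0 lower at 16 h in total exons (median log2 change 1.05, 26.9% of all genes higher). In labelled exons 2 were higher and 0 lower (median 1.28, 22.5% of all genes higher). Of these 4 genes, Ptprc and Pecam1 reached at most 0.1248 and 0.1465 RPKM in total exons. The medians and the 3 calls in total exons thus rest in part on values near the lower limit. Among the fibroblast markers, Col1a1, a type I collagen gene, went from 47600 to 24630 in total exons at 16 h. In such bulk samples fewer cells of a type and less RNA per cell cannot be told apart, and the part of this change in the falls of Slc39a1, Slc39a13, Slc39a11 and Mt1 was not tested.

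Calls over the 19 members are read beside the share of all genes called. In labelled exons at 1 h, 5 members were higher (Slc30a1, Mtf1, Slc39a6, Slc39a7 and Slc39a14) and 0 lower, against 13.5% of all genes higher and 9.77% lower, and by limma 1 member (Slc39a3) was lower at an unadjusted p under 0.05. At 4 h, 3 were higher (Slc30a1, Mtf1, Slc39a7) and 2 lower (Slc39a1, Slc30a4), against 19.5% and 18.7% of all genes. At 16 h, 4 were higher (Slc30a1, Mtf1, Slc39a7, Slc39a10) and 6 lower (Slc39a1, Slc39a13, Slc39a11, Slc39a14, Slc39a6, Mt1), against 22.5% and 21.7%. By family, 5 of the 10 Slc39a genes, 0 of the 7 Slc30a genes and Mt1 were lower at 16 h. By limma 0 Slc30a genes were lower at an unadjusted p under 0.05. The call of Slc39a6, which is among these Slc39a genes, was lost in several alternatives. In total exons the members lower at 16 h were Slc39a1, Slc39a11, Slc39a13 and Mt1, against 29% of all genes, so fewer Slc39a genes were lower there. In labelled exons the median log2 change of the 19 was 0.07, -0.05 and -0.06 at 1 h, 4 h and 16 h, against 0.01, 0 and 0.01 over all genes.

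In total exons at 4 h, 5 members were higher (Slc30a1, Mtf1, Slc39a6, Slc39a7, Slc30a7) and 2 lower (Slc39a1, Slc39a13), against 19.7% and 19.5% of all genes. With the replicate number as a block, 7 were higher, with Slc39a10 and Slc39a14 added, and the same 2 lower. Deviations of same-numbered replicates correlated only weakly at this time (0.123 to 0.186), so whether the numbers pair libraries is not settled. At 16 h, 5 were higher (Slc30a1, Mtf1, Slc39a7, Slc39a10, Slc30a7) and 4 lower (Slc39a1, Slc39a13, Slc39a11, Mt1), against 26.9% and 29% of all genes. All 4 members called higher and 4 of the 6 called lower in labelled exons at 16 h were called in the same direction in total exons, while Slc39a14 and Slc39a6 were not. The same share was not counted over all genes, so this overlap cannot be read as particular to the members. Some of these shares depend on the scaling: without further scaling the total exon calls at 4 h were 3 higher and 3 lower among members and 1714 higher and 2834 lower among all genes, against 2263 and 2239 as reported. In labelled exons, all-gene calls at 1 h were 1230 higher and 1575 lower when scaled by library sums, against 1554 and 1122, and at 4 h 1669 and 2584 without further scaling, against 2245 and 2143.

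In labelled introns at 1 h, 5 members were higher (Slc30a1, Mtf1, Slc39a6, Slc39a14, Slc30a7) and 5 lower (Slc30a6, Slc39a1, Slc39a3, Slc39a11, Slc39a13), against 24.8% and 24.4% of all genes. Slc39a1 introns were at 164, 232 and 192 at 0 min and 138, 180 and 142 at 1 h, overlapping but called (log2 change -0.35 ± 0.13, adjusted p = 0.0259), at a time when its exon value was not. At 4 h, 3 members were higher (Slc30a1, Mtf1, Slc39a10) and 4 lower (Slc39a1, Slc39a13, Slc39a11, Slc30a4), against 24.8% and 24.9% of all genes. Slc39a10 introns were at 1972, 2559 and 2117 at 0 min and 2789, 2766 and 3206 at 4 h without overlap (0.4 ± 0.09, adjusted p = 3.2e-04), again at a time when the exon value was not called. Differences between intron and exon changes were not tested.

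Total introns gave 4 members higher (Slc30a1, Mtf1, Slc39a6, Slc39a14) and 2 lower (Slc30a6, Slc39a10) at 1 h, against 20.3% and 19.9% of all genes. At 4 h they gave 3 higher (Slc30a1, Mtf1, Slc39a10) and 2 lower (Slc39a1, Slc30a4), against 20.3% and 19.5%. Slc39a10 was thus lower in total introns at 1 h (-0.28 ± 0.08, adjusted p = 0.007) and higher at 4 h (0.31 ± 0.08, adjusted p = 0.00321). Mt1 introns were too low in both tables, at 2.07 to 18.4 at 0 min, to be read.

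Tested over all 10 times together (limma F test), 11 of 19 members varied in labelled exons, 13 in labelled introns, 14 in total exons and 14 in total introns, against 64.6%, 79.9%, 70.8% and 71.7% of all genes. Between 1 h and 4 h in labelled exons, 5 members fell (Slc30a1, Slc30a4, Slc39a1, Slc39a6, Slc39a14) and 0 rose, against 7.01% of all genes lower and 5.2% higher. Between 4 h and 16 h, 6 fell (Slc30a1, Slc39a1, Slc39a6, Slc39a13, Slc39a14, Mt1) and 0 rose, against 12.2% lower and 9.64% higher. By limma, 2 members (Mtf1, Slc39a10) were higher at 4 h than at 1 h and 1 (Slc30a4) higher at 16 h than at 4 h at an unadjusted p under 0.05. The largest of the falls after 4 h was that of Mt1 (-0.71 ± 0.25, adjusted p = 0.0403), followed by Slc39a13 (-0.57 ± 0.09, adjusted p = 2.0e-05).

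Genes for other metals were read beside the zinc genes in labelled exons, where 13.5% of all genes were higher and 9.77% lower at 1 h and 22.5% higher and 21.7% lower at 16 h. Of 6 measured zinc handling genes outside both families, 2 were higher and 0 lower at 1 h, and at 16 h 1 and 0. The largest change was that of Tmem163, at values below the filter minimum of 10 (0.996 to 7.59 at 1 h), and Slc11a2, a divalent metal importer, went from 1338 to 1614 at 1 h (log2 change 0.27 ± 0.06, adjusted p = 0.00151). Of 10 measured iron handling genes, 4 were higher at 1 h and 2 at 16 h with 0 lower, led by the transferrin receptor gene Tfrc (4668 to 7679 at 1 h, 0.72 ± 0.1, adjusted p = 1.6e-06). Of 8 copper handling genes, 1 was higher at 1 h and 2 at 16 h (0 lower), including Atox1, a copper chaperone (0.45 ± 0.1 at 16 h, adjusted p = 2.1e-04). Of 14 magnesium and manganese handling genes, 1 was higher and 0 lower at 1 h and 3 and 2 at 16 h, where Slc41a2, a magnesium transporter, had the largest fall of those called (-0.92 ± 0.11, adjusted p = 2.4e-08). Of 9 glutathione and antioxidant genes, 3 were higher at 1 h and 5 at 16 h, when 1 was lower, with Gsr, glutathione reductase, at 0.8 ± 0.09 at 16 h (adjusted p = 8.2e-09). The median log2 change of these 5 lists at 1 h was 0.04, 0.2, 0.04, 0.08 and 0.19 in the order given, against 0.01 over all genes.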

How the data were processed

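Exons and introns were measured in labelled and total RNA at 11 times, 3 libraries each; titles gave groups and replicate numbers and name the table columns. The submitters' processing notes name TopHat2 2.0.8, TopHat and mm9 with no roles; the counter, annotation and strand setting are not known from the sources used here. Deposited values called counts were rescaled by the authors to other whole numbers, so each was read as a score without a count model (small whole numbers are nearly missing in 4 libraries of labelled and 9 of total exons). RPKM values from the authors equal these times a constant for each gene; after the same scaling they gave the printed levels per length, and otherwise entered only alternatives. Libraries of each table were scaled by the trimmed mean of log ratios (trimming 30% of log ratios and 5% of mean levels at each end). Genes reaching 10 in 3 or more libraries were tested. limma 3.58.1 (R 4.3.3, variance trend) was fitted to log2(scaled value + 1) as 1 mean for each time, using the 33 libraries of a table together, with two-sided tests and Benjamini-Hochberg adjustment over all tested genes. This scale understates changes of low genes, and 3 libraries a group limit the precision. The script was tested on simulated data. Members, lists and tests were chosen with earlier results of these data known. Library values are given for Slc30a1, Mt1, Mtf1 and members called with a log2 change of at least 0.5 in a main exon comparison (labelled 1 h, 4 h, 16 h, total 4 h, 16 h); those of Slc39a14, Slc39a6 and some introns were chosen after their values were seen. From each list of other metal genes at most the 2 largest called changes are named, and from the markers Col1a1 was picked after its values were seen. Deviations of same-numbered replicates from their group means correlated above 0.1 in every pair only in total exons at 4 h against 0 min (0.178, 0.186 and 0.123). Over the 4 tables at 1 h, 4 h and 16 h such correlations ran from -0.24 to 0.228, so pairing by replicate number is not settled. The block fit used all 33 libraries of a table and is given as an alternative. Gene positions are from GENCODE M1 on mm9, promoter letters from RefSeq. Alternatives changed the scaling, pseudocount, filter, variance trend or groups fitted, used RPKM or the replicate block, or left out a library.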

Additional observations from a re-analysis of the deposited data

Results flagged for a closer look

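Slc30a1 changed more in labelled than in total exons at 20 min and at 30 min, and this was singled out because the interaction test of the difference passed the threshold: the difference of the log2 changes was 1.34 (adjusted p = 3.7e-05) and 1.16 (adjusted p = 2.1e-04), with 3 libraries of each kind per time.

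Slc39a6 and Slc39a14 were singled out because their labelled exon changes at 1 h and 16 h lay on opposite sides of 0 min and the difference between the 2 times was itself past the threshold. The log2 difference between 16 h and 1 h, a contrast added after the values were seen, was -0.46 ± 0.07 for Slc39a6 (adjusted p = 2.9e-06) and -0.76 ± 0.07 for Slc39a14 (adjusted p = 2.6e-11), and all 3 libraries at 16 h lay below all 3 at 1 h for both genes. Both genes were picked for calls above and below the same 0 min libraries. Their difference and lack of overlap follow largely from that choice and are no separate evidence. Groups of 3 libraries are too small for a test of single outlying libraries.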

How the results depend on the processing

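Of 160 alternative values for the counts of members called, 149 stayed within 1.5 times the reported count. The count of members lower in labelled exons at 1 h went from 0 to 1 with the replicate block (Slc39a3), and that at 4 h from 2 to 1 without the variance trend and to 1 to 1 when each library was left out, with either Slc39a1 or Slc30a4 lost. In total exons at 4 h, members higher went from 5 to 3 without further scaling and to 3 to 5 when each library was left out (3 without replicate 3 of 0 min), and members lower from 2 to 1 to 2 (1 without replicate 2 of 0 min). With the replicate block, 7 members were higher in total exons at 4 h, with Slc39a10 and Slc39a14 gained. At 16 h in total exons the block gave 5 lower, with Slc39a14 gained, and in labelled exons at 4 h it gave 4 higher, with Slc30a7 gained. It lost no call of a member in the 5 main exon comparisons.

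Of 480 alternative values for the 6 genes given per library, 471 kept their direction where called and their side of the threshold, 8 lost a call, all by leaving out 1 library, and 1 gained it. The adjusted p over 16 alternatives ranged from 0.0122 to 0.0839 for Slc39a1 in labelled exons at 4 h, from 3.5e-04 to 0.0683 for Slc39a13 in total exons at 4 h, from 0.00157 to 0.126 for Mt1 in labelled exons at 16 h, from 0.0107 to 0.0587 for Mtf1 in labelled exons at 1 h and from 0.0212 to 0.435 for Slc39a10 in total exons at 4 h. For Slc30a1 the log2 change in labelled exons at 1 h ranged from 1.55 to 2.48 and all 16 alternatives called it. Scaling by library sums moved the median of all genes by over 0.1 only in labelled introns at 16 h (to 0.13). The causes of these changes were not tested. In the leave-one-out fits, the smaller number of libraries and the particular library left out cannot be told apart. DESeq2 was not run, because the files hold no raw counts, and read depth is unknown.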

Other observations

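Labelled intron values of 4 Slc30a genes were called lower at some times and not at others. Of all genes, 13.3% were called lower in labelled introns at 20 min, 20% at 30 min, 21.5% at 1.5 h and 24.9% at 4 h. Such calls are therefore not particular to Slc30a genes. For Slc30a3 these calls, at 1.5 h and 12 h, rest on means of 6.32 and 4.58 against 16.9 at 0 min, too low to be read. Slc30a6 introns held a mean of 1317 ± 53.3 (SD, n = 3) at 0 min, 997 ± 126 at 30 min and 1264 ± 23.7 at 16 h, with a log2 change of -0.41 ± 0.09 at 30 min (limma, adjusted p = 4.3e-04) and of -0.06 ± 0.09 at 16 h (adjusted p = 0.619). Slc30a9 introns held 4389 ± 220 at 0 min, 3690 ± 112 at 20 min (-0.25 ± 0.06, adjusted p = 0.00298) and 4489 ± 202 at 1 h (0.03 ± 0.06, adjusted p = 0.696). Slc30a4 introns were lower at 4 h only among 1 h, 4 h and 16 h: 3147, 4005 and 3107 at 0 min, 2977, 2611 and 2778 at 4 h (-0.29 ± 0.08, adjusted p = 0.00438) and 4097, 3843 and 3407 at 16 h (0.15 ± 0.08, adjusted p = 0.13), and the log2 difference between 16 h and 4 h was 0.44 ± 0.08 (adjusted p = 1.5e-04).

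Introns of Slc39a14 and Slc39a6 followed the order of their labelled exons. Slc39a14 introns held 6189, 6334 and 6306 at 0 min, 8347, 8512 and 8304 at 1 h and 5169, 4192 and 3979 at 16 h, with no overlap among the 3 times. Slc39a6 introns held 2132, 1975 and 1816 at 0 min, 2796, 3003 and 2796 at 1 h and 1671, 1676 and 1811 at 16 h, the last 2 groups on opposite sides of the first. These genes and times were chosen after their values were seen.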
